A study of Homo sapiens with 47 samples.

Results

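The mitochondrially encoded RNAs described here were 10 genes of the human mitochondrial genome, taken by symbol from a table of RNA-seq counts of ribosomal RNA-depleted total RNA. They were 9 mRNA genes, MT-ND1, MT-ND2, MT-ND4, MT-ND5, MT-CYB, MT-CO1, MT-CO2, MT-CO3 and MT-ATP6, and MT-RNR2, the gene of the large rRNA of the mitochondrial ribosome. They made up 10 of the 58395 genes in the table and 10 of the 37 genes of the mitochondrial genome, which holds 13 mRNA, 2 rRNA and 22 tRNA genes. All 37 passed the filter on low counts, which left 28025 genes to be tested.

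The libraries came from HEK293T cells, an established line derived from human embryonic kidney, 3 from wild-type cells and 3 from a line carrying a mutated EAF1 gene. EAF1 is a partner of the ELL family of transcription elongation factors, and the mutation replaced a short run of amino acids at its contact with the Mediator subunit MED26 by alanines. The mutant line was 1 clone made by CRISPR knock-in, with both EAF1 alleles mutated, and both groups grew in the same medium with no treatment. The comparison asked which RNAs differed in level once this contact was lost. The mutation leaves the EAF1 RNA to be counted, so the count of EAF1 does not check the labels. The methods speak of biological replicates and of repeated experiments, and the labels do not say which cultures the 3 libraries of a group came from, so p-values measure the spread between these samples, part of which may be technical. The counts summed to 59137210, 52541541 and 55637032 in wild-type replicates 1, 2 and 3, and to 57198018, 53369621 and 66611451 in EAF1-mutant replicates 1, 2 and 3.

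Markers of the cell line were present in both groups. Of 8 HEK293T markers, 7 had a mean of at least 1 CPM (CPM being the count scaled by the library total and its TMM factor), and the exception was PAX2 with means of 0.679 CPM in wild-type and 0.871 CPM in mutant cells. Their summed level was 781.7, 797.1 and 807.7 CPM in wild-type and 615.7, 602.4 and 612.7 CPM in mutant libraries, lower in all 3, with VIM the most abundant. NEFM and VIM were called lower and KRT8 and KRT18 called higher in the mutant line. Of 8 markers of other cell types, COL1A1 alone was tested, and it was called higher (log2 fold change 0.545, adjusted p = 0.000566 in edgeR), though not without wild-type replicate 1 (0.397). The summed level of those 8 was 2.44, 2.98 and 3.58 CPM in wild-type and 4.195, 4.58 and 4.63 CPM in mutant libraries. COL1A1 was the most abundant, the 7 others had means under 1 CPM, and UMOD had 0 counts in all 6 libraries. The part of these marker differences in the results below was not tested.

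The mitochondrial genome is a small circle that is transcribed from both strands, by the polymerase POLRMT with the factors TFAM and TFB2M, into long RNAs that span many genes. Most mRNAs and rRNAs are freed when the tRNAs lying between them are cut out, and their steady-state levels then differ through processing, stabilisation by LRPPRC and SLIRP, and decay. The mRNAs encode core subunits of respiratory complexes I, III and IV and of ATP synthase, while the other subunits of these complexes come from nuclear genes.

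Levels of the 10 RNAs differed little between EAF1-mutant and wild-type cells. The log2 fold changes, given throughout as EAF1 mutant over wild type, lay between -0.16 for MT-RNR2 and 0.093 for MT-CO2. A gene was called where its log2 fold change was larger than 0.5 in either direction and its Benjamini-Hochberg adjusted p was under 0.01. By the quasi-likelihood test of edgeR, 0 of the 10 were called lower, where 9.36% of the tested genes (2624) were, and 0 of the 10 were called higher, where 11.0% (3073) were. DESeq2 also called 0 lower and 0 higher, against 6.66% and 6.97% of the 35860 genes it tested. At an unadjusted p under 0.05 in edgeR, 1 of the 10 was lower (MT-CO3; 27.8% of all tested genes) and 1 was higher (MT-CO2; 28.5%). At an adjusted p under 0.01 with no minimum fold change, 1 was lower (MT-CO3; 21.1% of all tested genes) and 0 were higher (20.5%). With library totals in place of TMM factors the same rule gave 0 lower (14.8% of all tested genes) and 3 higher (MT-CO1, MT-CO2 and MT-ND5; 29.7%). Without wild-type replicate 1 it gave 4 lower (MT-ND1, MT-ATP6, MT-CO3 and MT-ND4; 20.6% of all tested genes). Without EAF1-mutant replicate 1 it gave 0 lower (18.8%), and without EAF1-mutant replicate 3 also 0 lower (18.2%). MT-CO3 was also the 1 RNA of the 10 with all 3 mutant libraries below all 3 wild-type ones, which held for 28.1% of the tested genes, and 0 had all 3 mutant libraries above, which held for 29.2%. With all 6 libraries and without library totals, each of these counts, as a share of the 10, was below that over all tested genes. The 3 higher with library totals were near it, and the 4 lower without wild-type replicate 1 were a larger share than that over all tested genes.

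The median log2 fold change of the 10 RNAs was -0.04, beside 0.012 for all tested genes. This direction depended on the scaling. With library totals in place of TMM factors the median of all tested genes moved to 0.127 and that of the 10 RNAs to 0.075. In both cases the median of the 10 lay below that of all genes. With TMM factors 6 of the 10 lay below 0 and 4 above; with library totals 2 lay below and 8 above. The same change of scaling moved the share of all calls that were higher from 53.9% (2624 lower, 3073 higher) to 69.3% (1844 lower, 4166 higher). The plot of fold changes in genome order shows all 37 mitochondrial genes between the lines that mark the fold threshold.

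**Figure D1:**
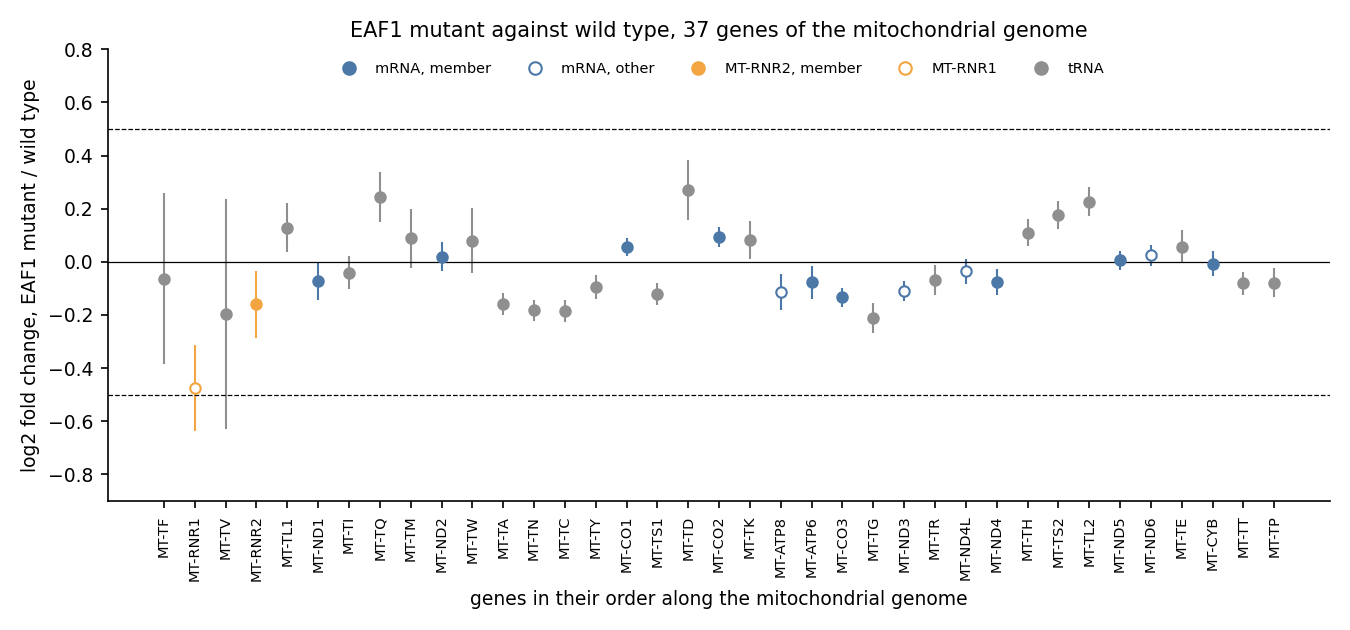
Log2 fold change of EAF1 mutant over wild type (vertical axis) of the 37 genes in their order along the mitochondrial genome (horizontal axis), with bars for the standard error of the edgeR fit and dashed lines at a log2 fold change of 0.5 in size. The 10 RNAs lie between -0.16 and 0.093 with TMM scaling, where 6 lie below 0, and MT-RNR1 is lowest at -0.475.

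Compared per length, as CPM per kilobase of gene, the mRNAs of complex IV were the most abundant of the 10. In wild-type cells MT-CO3 stood at 2557 ± 89.3, MT-CO1 at 2078 ± 51.4 and MT-CO2 at 1906 ± 91.9 CPM per kilobase (mean ± SD, n = 3). Next came MT-ATP6 at 911.8 ± 124 and MT-RNR2 at 866.1 ± 153 CPM per kilobase, a pair that did not differ beyond its spread. Below these came MT-CYB at 414.4 ± 33.3, MT-ND4 at 327.0 ± 26.7, MT-ND5 at 178.5 ± 3.85, MT-ND1 at 154.3 ± 24.7 and MT-ND2 at 144.9 ± 15.2 CPM per kilobase. MT-ND5 and MT-ND2 both lay within the SD of MT-ND1, but MT-ND1 lay outside the smaller SD of MT-ND5. The first 8 places were held by the same genes in mutant cells, and MT-ND2 and MT-ND1 came last there at 146.8 ± 4.92 and 146.7 ± 8.22 CPM per kilobase. The 4 other mitochondrial mRNA genes fell inside this range or near its end: per kilobase, MT-ATP8 had 1113 ± 173, MT-ND3 789.5 ± 18.6, MT-ND4L 378.0 ± 25.0 and MT-ND6 146.8 ± 2.26 CPM in wild-type cells. The plot of levels by library shows these steps.

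**Figure D2:**
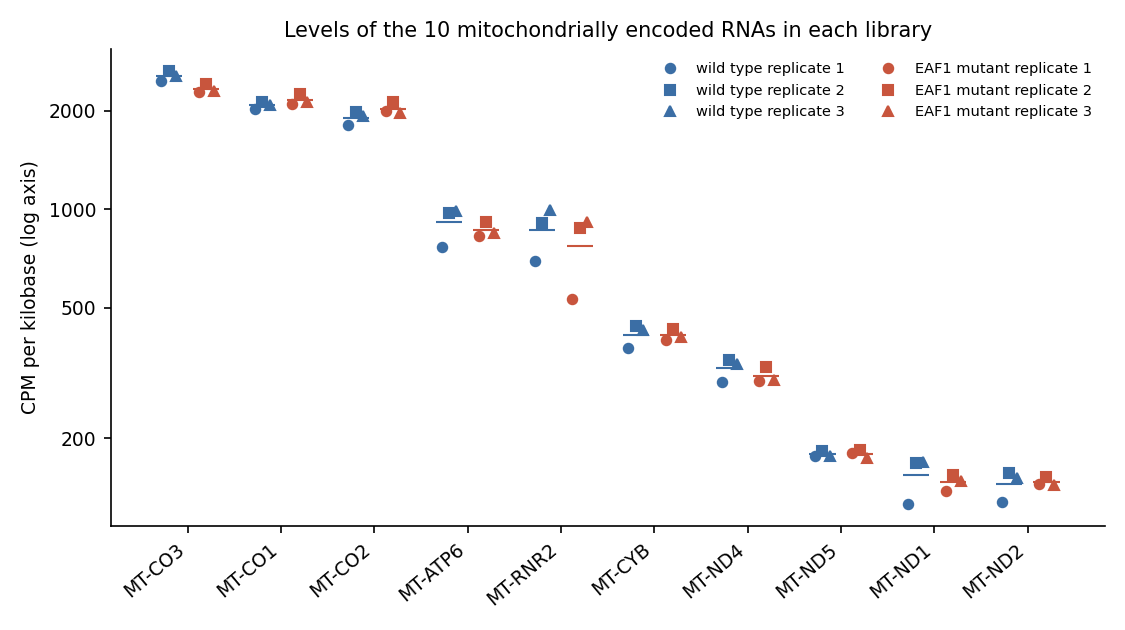
CPM per kilobase (vertical log axis) of the 10 RNAs in each library, with a symbol for each replicate and a bar for the group mean. MT-CO3, MT-CO1 and MT-CO2 lie at the top (means of 2557, 2078 and 1906 in wild-type and 2332, 2160 and 2032 in mutant cells), and replicate 1 is the lowest wild-type library for 9 of the 10.

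The 10 RNAs together took about 1% of all counts in either group. Their share was 0.892% (95% Wilson interval 0.889 to 0.894), 1.004% (1.001 to 1.006) and 0.996% (0.993 to 0.999) in wild-type replicates 1, 2 and 3. It was 0.966% (0.963 to 0.968), 1.084% (1.082 to 1.087) and 1.029% (1.027 to 1.032) in the 3 mutant libraries. The groups overlapped, with means of 0.964 ± 0.0626% and 1.026 ± 0.0595% (mean ± SD, n = 3). These intervals cover counting error only. In bulk RNA, fewer mitochondria in a cell and less RNA in each cannot be told apart.

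Most of this share came from the mRNAs. The 9 mRNAs held 0.834 ± 0.0416% of the counts in wild-type and 0.901 ± 0.0357% in mutant libraries, and all 3 mutant libraries were higher. On the TMM scale the difference was not seen, as the summed level of the 9 was 8679 ± 405 CPM in wild-type and 8654 ± 330 CPM in mutant libraries and the groups overlapped. The smallest p that a two-sided exact permutation test can give for 3 against 3 libraries is 0.1, so no p is given for shares. Shares rest on library totals, with which 69.3% of all calls were higher, against 53.9% with TMM factors. How many of all tested genes had a higher share in all 3 mutant libraries was not counted. Whether the rise in the share of the 9 mRNAs was unusual was therefore not tested. MT-RNR2 alone held 0.130 ± 0.0232% and 0.126 ± 0.0340%, with overlap. All 37 mitochondrial genes held 1.155 ± 0.0743% and 1.211 ± 0.0708%, also with overlap. The bars of shares by library show that the 9 mRNAs made up most of each total.

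**Figure D3:**
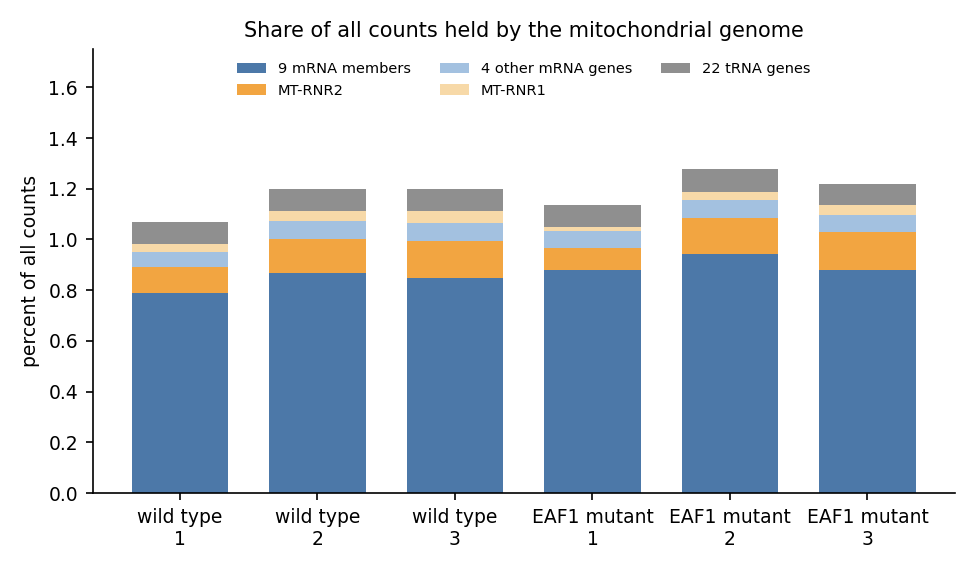
Percent of all counts (vertical axis, from 0) held by genes of the mitochondrial genome in each library, stacked by kind of gene. The 9 mRNAs of the 10 take 0.788 to 0.942% of all counts, MT-RNR2 0.0866 to 0.149%, and all 37 genes 1.069 to 1.278%.

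MT-RNR2 (ENSG00000210082, chrM:1671-3229 of GRCh38, plus strand, 1559 bases) encodes the RNA core of the large subunit of the mitochondrial ribosome, and what was counted is what rRNA depletion had left. It had 1087, 1412 and 1551 CPM in wild-type replicates 1, 2 and 3 and 831.2, 1366 and 1428 CPM in the mutant ones. Replicate 1 was the low library in both groups, and the groups overlapped. The log2 fold change was -0.16 (SE 0.126, adjusted p = 0.307 in edgeR). Without EAF1-mutant replicate 1 the direction turned, to 0.049 (adjusted p = 0.684 in edgeR, range over its alternatives 2.53e-05 to 0.785). The lowest of that range came from the edgeR fit with no filter except 1 count, at a log2 fold change of -0.162. With the replicate number as a block it was -0.184 (adjusted p = 0.00166 in edgeR). The coefficient of variation of MT-RNR2, 17.6% in wild-type and 27.2% in mutant libraries, was the highest of the 10.

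The neighbouring rRNA gene, MT-RNR1 (ENSG00000211459, chrM:648-1601, 954 bases), which encodes the RNA of the small subunit, differed more. It had 292.0, 392.2 and 477.9 CPM in the wild-type libraries and 172.9, 298.3 and 364.3 CPM in the mutant ones. Replicate 1 was again the lowest of each group, and the groups overlapped. The log2 fold change was -0.475 (SE 0.162, adjusted p = 0.0172 in edgeR), short of both thresholds. It passed them without wild-type replicate 1 (-0.656, adjusted p = 0.000452 in edgeR) and without EAF1-mutant replicate 3 (-0.718, adjusted p = 0.000323 in edgeR). Over the alternatives the adjusted p ranged from 4.05e-34 in edgeR to 0.328 in DESeq2. The lowest came from the edgeR fit with no filter except 1 count, at a log2 fold change of -0.477. The replicates of MT-RNR1 ranked alike in both groups, though over all tested genes libraries of the same number did not deviate together. With the replicate number as a block, the log2 fold change also passed the thresholds (-0.512, adjusted p = 7.91e-10 in edgeR). It was smaller without EAF1-mutant replicate 1 (-0.226, adjusted p = 0.145 in edgeR) and without wild-type replicate 3 (-0.313, adjusted p = 0.135 in edgeR). Of the 100-base windows of MT-RNR1, 21.2% had an exact copy in the nuclear genome, with the most copies on chromosome 13, so its level is uncertain to that extent. Per base, MT-RNR1 counts were 0.439, 0.454 and 0.504 of MT-RNR2 counts in wild-type and 0.3399, 0.357 and 0.417 in mutant libraries, lower in all 3. The same held for 3.43% of all other tested genes set against MT-RNR2. MT-RNR2 itself varied widely (coefficient of variation 17.6% in wild-type and 27.2% in mutant libraries), and its replicates ranked as those of MT-RNR1 did. A gene without that ranking separates less easily against MT-RNR2, so the 3.43% does not show how unusual this ratio was.

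Counts at other rRNA genes, looked at after the values of MT-RNR1 and MT-RNR2 had been seen, were low in the same libraries. The 47 nuclear genes annotated as rRNA summed to 72.5, 135.2 and 135.7 CPM in wild-type and 63.6, 113.4 and 135.4 CPM in mutant libraries. A long noncoding RNA gene, ENSG00000281181 (chr21:8437629-8438551, minus strand), lies inside the small-subunit cytosolic rRNA gene RNA18SN1 (chr21:8436876-8438744). It had 3296, 4031 and 5081 CPM in wild-type and 1587, 2907 and 3278 CPM in mutant libraries. Replicate 1 was the lowest of its group in each of these sets. The log2 fold change of ENSG00000281181 was -0.675 (adjusted p = 0.000918 in edgeR), past the threshold. DESeq2 did not call it, and it was not called by edgeR without wild-type replicate 3 (-0.517) or without EAF1-mutant replicate 1 (-0.42). Whether its counts come from rRNA was not tested. The part of rRNA depletion in the values of MT-RNR1 and MT-RNR2 was not tested.

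The 3 mRNAs of complex IV, cytochrome c oxidase, encode its catalytic core. The ends of these mRNAs are shown because they differ in how each mRNA stops: the lines give the last 20 bases of each gene on the plus strand of GRCh38, with the letters of the final codon in capitals, at chrM:7426-7445, chrM:8250-8269 and chrM:9971-9990.
MT-CO1: ccgtatacataaaatctAGA
MT-CO2: ggcccgtatttaccctaTAG
MT-CO3: catctattgatgagggtctT
MT-CO1 and MT-CO2 end in a whole codon, while MT-CO3 ends in a single T, which becomes a stop codon only once the poly(A) tail is added. Of the 9 mRNAs, 5 end in such an incomplete stop codon (MT-ND1, MT-ND2, MT-CO3, MT-ND4 and MT-CYB), as do 6 of all 13.

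MT-CO1 (ENSG00000198804, chrM:5904-7445, 1542 bases) encodes the subunit that holds the site of oxygen reduction. It had 3122, 3280 and 3210 CPM in wild-type and 3236, 3472 and 3286 CPM in mutant libraries. The groups overlapped, as mutant replicate 1 lay below wild-type replicate 2, and the log2 fold change was 0.056 (SE 0.035, adjusted p = 0.196 in edgeR). With library totals in place of TMM factors it was 0.171 (adjusted p = 0.000335 in edgeR, the lowest over its alternatives, which reached 0.636). MT-CO2 (ENSG00000198712, chrM:7586-8269, 684 bases) encodes the subunit that takes electrons from cytochrome c. It had 1235, 1357 and 1319 CPM in wild-type and 1365, 1455 and 1350 CPM in mutant libraries. Mutant replicate 3 lay below wild-type replicate 2, so these groups overlapped as well (log2 fold change 0.093, SE 0.039, adjusted p = 0.0545 in edgeR). With library totals it was 0.208 (adjusted p = 0.000133 in edgeR, the lowest over its alternatives, which reached 0.418). Both were under the fold threshold on either scaling. Without wild-type replicate 1 the values were smaller, at 0.024 for MT-CO1 and 0.041 for MT-CO2, and without EAF1-mutant replicate 2 they were 0.025 and 0.058.

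MT-CO3 (ENSG00000198938, chrM:9207-9990, 784 bases) encodes the third core subunit. It had 1937, 2077 and 2001 CPM in wild-type and 1791, 1896 and 1797 CPM in mutant libraries. All 3 mutant libraries were lower than all 3 wild-type ones, and mutant replicate 2 and wild-type replicate 1 lay closest. The log2 fold change was -0.133 (SE 0.036, adjusted p = 0.00362 in edgeR, lower in 3 of 3 libraries), under the fold threshold. With library totals in place of TMM factors it was -0.018 (adjusted p = 0.712 in edgeR). Without EAF1-mutant replicate 1 it was -0.119 (adjusted p = 0.0170 in edgeR), and without EAF1-mutant replicate 3 -0.121 (adjusted p = 0.0392 in edgeR). The adjusted p ranged from 0.000352 to 0.712 over its alternatives, with the same sign in each.

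The balance among the 10 RNAs was compared within each library, where the scaling of libraries cancels. Each RNA was given as its share of the summed per-kilobase level of the 10. MT-CO1 held 22.8, 21.4 and 21.2% in wild-type and 23.6, 22.9 and 22.8% in mutant libraries. Wild-type replicate 1 and mutant replicate 3 were both at 22.83% and differed only in later digits. MT-CO2 held 20.35, 19.97 and 19.66% in wild-type and 22.4, 21.6 and 21.2% in mutant libraries, and the groups did not overlap. MT-CO3 held 27.9, 26.7 and 26.0% in wild-type and 25.7, 24.6 and 24.6% in mutant libraries, lower in all 3. So 2 of the 10 were higher in all 3 mutant libraries relative to this sum (MT-CO1 and MT-CO2), as were 26.2% of all tested genes. For 1 of the 10, MT-CO3, all 3 were lower, as for 21.8% of all tested genes. The shares of the 10 have a fixed sum, so rises and falls among them are not separate results. Genes outside the 10 are not bound in this way. The shares of the 7 other RNAs overlapped between the groups. With the counts not divided by length, the groups of MT-CO1 overlapped, and those of MT-CO2 remained apart. Those of MT-CO3 were apart only narrowly, at 19.34% in wild-type replicate 3 and 19.33% in mutant replicate 1.

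MT-CO3 was then set against its partners in complex IV, a choice of pairs made after the values were seen. Per base, MT-CO1 counts were 0.820, 0.803 and 0.816 of MT-CO3 counts in wild-type and 0.919, 0.931 and 0.930 in mutant libraries. MT-CO2 counts were 0.731, 0.749 and 0.756 of MT-CO3 counts in wild-type and 0.874, 0.879 and 0.861 in mutant libraries. Neither ratio overlapped between the groups, with means of 0.813 ± 0.00859 against 0.927 ± 0.00664 for MT-CO1 and 0.745 ± 0.0130 against 0.872 ± 0.00927 for MT-CO2 (mean ± SD, n = 3). Set against MT-CO3, 38.8% of all other tested genes were higher in all 3 mutant libraries and 17.6% were lower in all 3, so such a ratio was common. Among the 9 other RNAs 5 were higher against MT-CO3 in all 3 mutant libraries (MT-ND2, MT-CO1, MT-CO2, MT-ND5 and MT-CYB) and 0 were lower. The ratio of MT-CO1 to MT-CO2 overlapped, at 1.091 ± 0.0269 and 1.063 ± 0.0145, as did that of MT-ATP6 to MT-CO3, at 0.356 ± 0.0399 and 0.371 ± 0.00765. The ratios of MT-RNR2 to MT-CO1 (0.416 ± 0.0673 and 0.358 ± 0.0921) and of MT-ND1 to MT-ND5 (0.864 ± 0.132 and 0.819 ± 0.0446) overlapped as well. Of the 45 pairs that the 10 RNAs form, 34 overlapped between the groups and 11 did not. The matching share over pairs of all tested genes was not counted, so whether 11 is many or few was not tested. In a fit scaled to the counts of the 13 mitochondrial mRNA genes, the log2 fold changes were 0.065 for MT-CO1 (adjusted p = 0.511 in edgeR), 0.102 for MT-CO2 (adjusted p = 0.261) and -0.124 for MT-CO3 (adjusted p = 0.166). The pseudogene copies of MT-CO1, described with the other copies, could take part of its reads, and their part in these ratios was not tested.

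**Figure D4:**
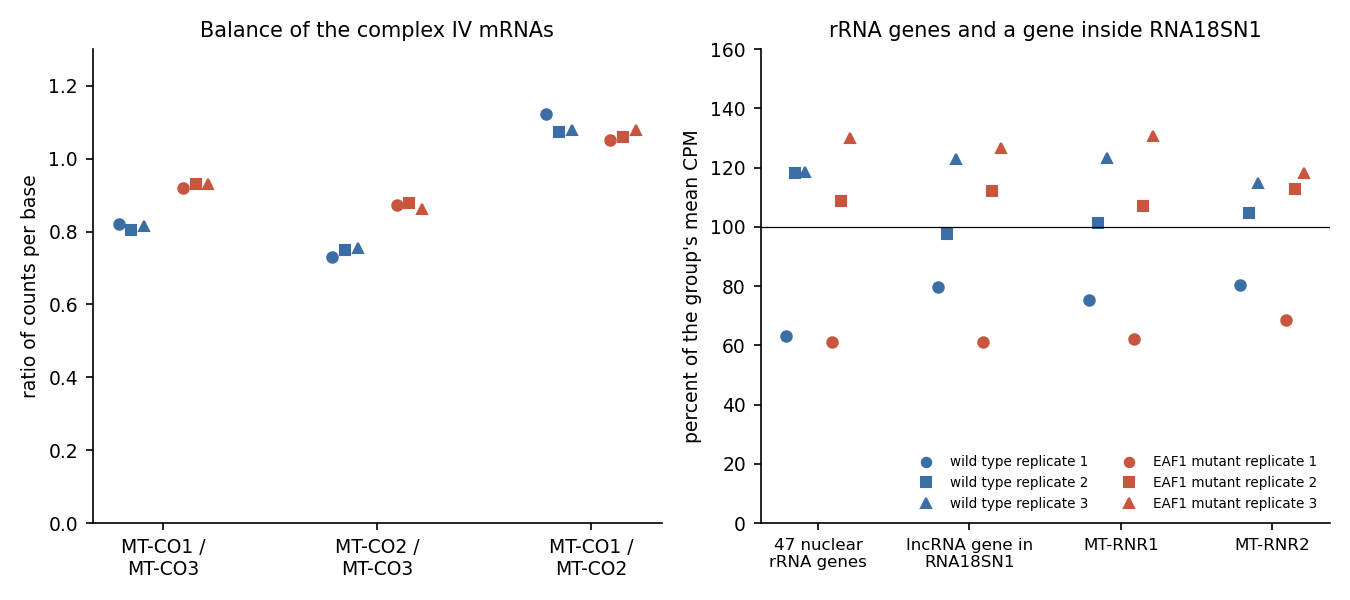
Left, ratio of counts per base (vertical axis, from 0) between the 3 complex IV mRNAs in each library; the ratio of MT-CO1 to MT-CO3 is 0.803 to 0.820 in wild-type and 0.919 to 0.931 in mutant libraries. Right, CPM of 47 nuclear rRNA genes, of ENSG00000281181 inside RNA18SN1, of MT-RNR1 and of MT-RNR2 as a percent of the mean of the group (vertical axis, from 0), where replicate 1 is the lowest library of each group.

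MT-ATP6 (ENSG00000198899, chrM:8527-9207, 681 bases) encodes the subunit of ATP synthase that forms its proton path. It had 523.5, 665.5 and 673.7 CPM in wild-type and 566.0, 624.1 and 576.0 CPM in mutant libraries. Wild-type replicate 1 was the lowest of all 6 and the other wild-type libraries were the highest, so the groups overlapped (log2 fold change -0.077, adjusted p = 0.324 in edgeR). Its start lies inside MT-ATP8, another ATP synthase gene on the same mRNA. The 46 bases that belong to both genes, chrM:8527-8572, open with the start codon of MT-ATP6 and close with the stop codon of MT-ATP8, and are shown because a read that overlaps them can count for either gene.
MT-ATP8 and MT-ATP6: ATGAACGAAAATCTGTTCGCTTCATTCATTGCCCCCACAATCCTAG
MT-ATP8 had 189.0, 249.1 and 252.9 CPM in wild-type and 205.4, 220.5 and 212.7 CPM in mutant libraries. As for MT-ATP6, wild-type replicate 1 was the lowest library and the groups overlapped (log2 fold change -0.113, adjusted p = 0.171 in edgeR).

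The 4 complex I mRNAs of the 10 encode subunits of the membrane arm of NADH dehydrogenase. MT-ND1 (ENSG00000198888, chrM:3307-4262, 956 bases), at the junction with the matrix arm, had 120.3, 160.6 and 161.7 CPM in wild-type and 132.0, 147.7 and 140.9 CPM in mutant libraries. MT-ND2 (ENSG00000198763, chrM:4470-5511, 1042 bases) had 132.8, 162.4 and 157.6 CPM in wild-type and 150.7, 158.9 and 149.4 CPM in mutant libraries. In both genes wild-type replicate 1 was the lowest of all 6 libraries and the mutant values lay between it and the highest wild-type value. The log2 fold changes were -0.073 for MT-ND1 (adjusted p = 0.417 in edgeR) and 0.02 for MT-ND2 (adjusted p = 0.784 in edgeR).

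MT-ND4 (ENSG00000198886, chrM:10760-12137, 1378 bases) had 408.9, 478.4 and 464.6 CPM in wild-type and 411.8, 455.4 and 415.8 CPM in mutant libraries. MT-ND5 (ENSG00000198786, chrM:12337-14148, 1812 bases) had 319.8, 331.5 and 319.1 CPM in wild-type and 325.8, 334.1 and 313.9 CPM in mutant libraries. Both encode antiporter-like proton channels, and in both the groups overlapped. MT-ND5 had the smallest spread of the 10, with a coefficient of variation of 2.15% in wild-type and 3.13% in mutant libraries. The log2 fold changes were -0.075 for MT-ND4 (adjusted p = 0.207 in edgeR) and 0.005 for MT-ND5 (adjusted p = 0.926 in edgeR).

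The 3 other complex I genes of the mitochondrial genome were also not called. MT-ND3 was the 1 of the 4 further mRNA genes at an unadjusted p under 0.05, with 266.0, 278.4 and 275.1 CPM in wild-type and 251.4, 259.7 and 248.1 CPM in mutant libraries. All 3 mutant libraries were lower (log2 fold change -0.11, adjusted p = 0.0125 in edgeR). MT-ND4L, which shares 7 bases with MT-ND4, stood at -0.036 (adjusted p = 0.545 in edgeR). MT-ND6, the 1 mRNA gene on the minus strand, stood at 0.025 (adjusted p = 0.636 in edgeR), and its groups overlapped.

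MT-CYB (ENSG00000198727, chrM:14747-15887, 1141 bases) encodes cytochrome b, the mitochondrial subunit of complex III. It had 429.5, 500.4 and 488.7 CPM in wild-type and 455.9, 491.1 and 465.0 CPM in mutant libraries. The mutant values all lay inside the wild-type range. Its log2 fold change was -0.007 (SE 0.046, adjusted p = 0.919 in edgeR), and its sign changed with library totals in place of TMM factors (0.108).

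Wild-type replicate 1 stood apart from its group for part of these genes. It was the lowest wild-type library for 9 of the 10 RNAs, the exception being MT-ND5, and EAF1-mutant replicate 1 was the lowest mutant library for 7. The distance was uneven along the genome. As a percent of the mean of the other 2 wild-type libraries, wild-type replicate 1 reached 73.4% for MT-RNR2, 74.7% for MT-ND1, 78.2% for MT-ATP6 and 83.0% for MT-ND2. It reached 86.7% for MT-ND4 and 86.9% for MT-CYB, but 92.3% for MT-CO2, 95% for MT-CO3, 96.2% for MT-CO1 and 98.3% for MT-ND5. The distance was thus large at MT-ATP6 and small at MT-CO2 and MT-CO3 on either side of it. The median coefficient of variation of the 10 was 8.10% in wild-type and 3.97% in mutant libraries, beside 2.89% and 2.24% over the 1881 genes whose mean reached 100 CPM.

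This library bore on the comparison. Without wild-type replicate 1 the median log2 fold change of the 10 was -0.12 in place of -0.04. MT-ND1 then stood at -0.214 (adjusted p = 0.000160 in edgeR, range over its alternatives 0.000160 to 0.865) and MT-ATP6 at -0.199 (adjusted p = 0.000225 in edgeR, range 0.000225 to 0.735). MT-ND4 stood at -0.154 (adjusted p = 0.00385 in edgeR, range 0.00385 to 0.526). None of the 10 passed the fold threshold without it. Its total of 59137210 counts was the highest of the wild-type libraries, and the labels name no batch.

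The 22 tRNA genes are 59 to 75 bases long, and a library of total RNA holds mature tRNAs poorly. Mature tRNAs and longer RNAs that span them cannot be told apart in these counts. By edgeR 0 of the 22 were called lower and 0 higher (9.36% and 11.0% of all tested genes), and DESeq2 called 0 in either direction. At an unadjusted p under 0.05 in edgeR 6 were lower and 5 higher, beside 27.8% and 28.5% of all tested genes. Their log2 fold changes lay between -0.212 and 0.271 with a median of -0.052, which became 0.062 with library totals. The 3 most abundant in CPM were MT-TC, MT-TN and MT-TY, which lie together on the strand opposite to MT-CO1, just before its start. MT-TC had 172.6, 158.3 and 163.8 CPM in wild-type and 143.5, 153.3 and 138.9 CPM in mutant libraries. MT-TN had 169.7, 158.4 and 158.2 CPM in wild-type and 139.7, 149.4 and 139.3 CPM in mutant libraries. Both were lower in all 3 mutant libraries, as were 28.1% of all tested genes. Their log2 fold changes were -0.184 (adjusted p = 0.000735 in edgeR) and -0.183 (adjusted p = 0.000493 in edgeR), under the fold threshold. MT-TY overlapped between the groups (log2 fold change -0.095, adjusted p = 0.0739 in edgeR).

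At an adjusted p under 0.01 in edgeR with no minimum fold change, 4 tRNA genes were lower and 2 higher, named here after their values were seen. Both were smaller shares of the 22 than over all tested genes (21.1% and 20.5%). The 4 were MT-TA, MT-TN, MT-TC and MT-TG, at -0.16, -0.183, -0.184 and -0.212 on the log2 scale. The 2 were MT-TS2 and MT-TL2, which lie side by side between MT-ND4 and MT-ND5, at 0.176 and 0.227. The summed level of the 22 was 907.8 ± 16.9 CPM in wild-type and 841.2 ± 34.9 CPM in mutant libraries, lower in all 3, but their share of all counts was 0.0872 ± 0.00132% and 0.0876 ± 0.00379%, with overlap. The 5 tRNA genes beside MT-CO1 on the other strand, MT-TA, MT-TN, MT-TC, MT-TY and MT-TS1, had means of 100.9 to 155.1 CPM over the 6 libraries. The 17 others had 0.218 to 33.1 CPM.

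The strand setting of the counting bears on these genes. TUBA1B-AS1, a nuclear gene opposite TUBA1B and chosen after the counts were seen, held 84.1 to 85.1% of the count of TUBA1B in every library. RN7SK and the 7SK gene at the same place held equal counts in all 6. Counts of a gene and of a gene opposite it or overlapping it can therefore hold the same reads, and RNA of the 2 strands of the mitochondrial genome cannot be told apart in these counts.

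Nuclear copies of mitochondrial genes limit how exactly the levels can be read. In the reference, 27.9% of the 100-base windows of MT-CO1 had an exact copy in the nuclear genome, 26.1% of those of MT-ND2, 11.9% of MT-ATP6 and 11.0% of MT-ND1. The share was 4.67% for MT-CO3 and 2.39% for MT-CO2, and no window of MT-RNR2, MT-ND4, MT-ND5 or MT-CYB had one. Copies of these first 6 genes stand in a row on chromosome 1, where their starts span 5314 bases. The 3 most abundant copies of all were MTCO1P12 (chr1:631074-632616), MTATP6P1 (chr1:633696-634376) and MTND2P28 (chr1:629640-630683).

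Counts at these copies were 14.8 to 15.9% of those of MT-CO1 for MTCO1P12, 16.8 to 17.8% of those of MT-ATP6 for MTATP6P1, and 30.8 to 34.5% of those of MT-ND2 for MTND2P28. For MTCO1P12 the percentage was 15.8, 15.9 and 15.6% in wild-type and 15.1, 14.9 and 14.8% in mutant libraries, lower in all 3. The 3 copies had log2 fold changes of -0.018, -0.092 and -0.06, beside 0.056, -0.077 and 0.02 for the genes they copy. MTND1P23 held 9.03 to 11.0% of the MT-ND1 count, also lower in all 3 mutant libraries, and its own log2 fold change was -0.232 (adjusted p = 0.00913 in edgeR), under the fold threshold. How many of all tested genes were lower in all 3 against MT-CO1 or MT-ND1 was not counted, so whether such a ratio was unusual was not tested. MTCO3P12 held 0.595 to 0.769% of the MT-CO3 count and MTCO2P12 0.377 to 0.447% of the MT-CO2 count. Levels of MT-CO1, MT-ATP6, MT-ND2 and MT-ND1 are uncertain to this extent, as reads of either origin cannot be told apart.

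The table held 404 nuclear copies by symbol, of which 42 were tested, with a median log2 fold change of -0.093 that became 0.022 with library totals. Of these 4 were called lower and 3 higher by edgeR (9.36% and 11.0% of all tested genes), and 1 lower and 2 higher by DESeq2 (6.66% and 6.97%). The lower calls also came to 1 without EAF1-mutant replicate 1 or 3 and to 2 without wild-type replicate 3. None of the 7 reached 1 CPM in either group, and they are named after their values were seen. MTND4P32, MTATP6P19, MTND5P26 and MTND2P2, all on the X chromosome, were lower by -1.56, -1.16, -1.03 and -0.88 on the log2 scale. MTATP6P27 and MTND2P40 on chromosome 19 and MTND4P26 on chromosome 2 were higher by 1.53, 1.45 and 1.28. Of the 7, MTND2P2, MTATP6P19, MTND5P26 and MTND4P26 lost the call when any of several single libraries was left out.

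The machinery that transcribes the mitochondrial genome was not called either. Of 9 tested genes 0 were called lower and 0 higher by edgeR (9.36% and 11.0% of all tested genes) and by DESeq2. At an unadjusted p under 0.05 in edgeR 6 were lower (27.8% of all tested genes) and 1 higher (28.5%). Their median log2 fold change was -0.21, or -0.095 with library totals. POLRMT, the mitochondrial RNA polymerase, had 67.9, 58.2 and 67.3 CPM in wild-type and 58.0, 61.1 and 61.8 CPM in mutant libraries, which overlapped (log2 fold change -0.097, adjusted p = 0.109 in edgeR). TFAM, which packages mitochondrial DNA and opens its promoters, had 148.0, 153.4 and 147.1 CPM in wild-type and 130.2, 120.8 and 125.9 CPM in mutant libraries. All 3 mutant libraries were lower, at a log2 fold change of -0.251 (adjusted p = 6.56e-06 in edgeR) that did not reach the fold threshold. TFB2M, the other promoter factor, stood at -0.427 (adjusted p = 7.21e-07 in edgeR, lower in all 3 mutant libraries) and TEFM, the elongation factor, at 0.121 (adjusted p = 0.0485 in edgeR).

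Other nuclear genes that act on mitochondrial DNA or RNA were read with their place in the genome in view. Calls in this and each later list stand beside 9.36% lower and 11.0% higher over all tested genes by edgeR. By DESeq2 these shares were 6.66% and 6.97%, and at an unadjusted p under 0.05 in edgeR 27.8% and 28.5%. The short arm of chromosome 3, which holds EAF1, had 731 tested genes, of which 469 were called lower and 13 higher, with a median log2 fold change of -0.777. Of 14 tested genes for replication and upkeep of mitochondrial DNA, 4 were called lower and 0 higher by edgeR (9 lower and 2 higher at an unadjusted p under 0.05; 4 and 0 by DESeq2), 1 of the 4 on that arm. EXOG, a mitochondrial nuclease on that arm, fell by 1.02 and MGME1, a nuclease that trims single-stranded ends of mitochondrial DNA, fell by 0.82 on the log2 scale. SSBP1 and DNA2, named after their values were seen, were the others, at -0.732 and -0.557, and DNA2 was not called with library totals (-0.442). The median of the list was -0.244, and -0.23 without that arm, or -0.129 with library totals.

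Of 29 tested genes for processing, modification and decay of mitochondrial RNA, 6 were called lower and 0 higher (20 lower and 2 higher at an unadjusted p under 0.05 in edgeR; 6 and 0 by DESeq2), with a median of -0.118 that became -0.003 with library totals. RPUSD3, a mitochondrial pseudouridine synthase, fell by 1.73 and PDE12, which removes poly(A) tails of mitochondrial RNA, fell by 1.01 on the log2 scale. Both lie on the short arm of chromosome 3, and without that arm 4 genes were called lower. LRPPRC, which with SLIRP binds and stabilises mitochondrial mRNAs, stood at -0.176 (adjusted p = 0.000195 in edgeR, lower in all 3 mutant libraries), under the fold threshold. SLIRP stood at -0.016 (adjusted p = 0.767 in edgeR).

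Of 78 tested genes for proteins of the mitochondrial ribosome, 4 were called lower and 1 higher, both smaller shares than over all tested genes (9.36% and 11.0%). At an unadjusted p under 0.05 in edgeR 48 were lower, a larger share than 27.8%, and 12 higher, a smaller share than 28.5%. The median was -0.138 and became -0.023 with library totals. With library totals 4 were called lower and 3 higher. MRPS25, on the short arm of chromosome 3, fell by 1.89 and MRPS26 fell by 0.98, while MRPS18A rose by 0.521 on the log2 scale. Without EAF1-mutant replicate 1 MRPS18A stood at 0.495 and edgeR called 0 genes of the list higher (12 higher at an unadjusted p under 0.05 with all libraries; 1 by DESeq2). The others called lower, MRPS33 and MRPL52, were named after their values were seen and stood at -0.765 and -0.626.

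The nuclear partners of the mitochondrially encoded subunits were counted complex by complex. Of 37 tested genes of complex I, 2 were called lower and 0 higher (16 lower and 6 higher at an unadjusted p under 0.05 in edgeR; 2 and 0 by DESeq2), with a median of 0.014 that became 0.13 with library totals. These were NDUFS4, an assembly-critical subunit of the matrix arm, which fell by 0.84, and NDUFB2, a small subunit of the membrane arm, which fell by 0.67 on the log2 scale. Of 4 genes of complex II, which has no mitochondrially encoded subunit, 0 were called in either direction by edgeR or DESeq2, with 3 lower and 0 higher at an unadjusted p under 0.05, and the median was -0.255, or -0.14 with library totals. Of 9 genes of complex III, 1 was called lower, UQCRC1, which lies on the short arm of chromosome 3 and fell by 1.00 (log2), and 0 higher by edgeR (5 lower and 1 higher at an unadjusted p under 0.05; 1 and 0 by DESeq2). The median of complex III was -0.097, and 0.018 with library totals.

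Of 11 genes of complex IV, 1 was called lower, COX7B, which fell by 0.64 on the log2 scale, and 0 higher (8 lower and 1 higher at an unadjusted p under 0.05 in edgeR; 1 and 0 by DESeq2), with a median of -0.233 that became -0.118 with library totals. Without wild-type replicate 1 or 2 a second gene was called lower, COX5A, named after its values were seen, at -0.509 and -0.504 in place of -0.484. Of 18 genes of ATP synthase, 3 were called lower and 0 higher (10 lower and 2 higher at an unadjusted p under 0.05 in edgeR; 3 and 0 by DESeq2), with a median of -0.101 that became 0.015 with library totals. ATP5F1C, the rotor shaft subunit, fell by 0.67, ATP5PB, of the peripheral stalk, fell by 0.61, and ATP5MC3, a gene for the membrane ring named after its values were seen, fell by 0.53. With library totals 1 of the 18, ATP5F1C, was called lower, while ATP5PB stood at -0.498 and ATP5MC3 at -0.413. Over all 78 nuclear genes of the 5 complexes, with NDUFA4 counted once, 7 were called lower and 0 higher by edgeR, and 7 and 0 by DESeq2. The 7 lower by edgeR were near the share of all tested genes (9.36%), and 0 higher was below it (11.0%). At an unadjusted p under 0.05 in edgeR 41 were lower, a larger share than the 27.8% of all tested genes, and 10 higher, a smaller share than 28.5%. The median was -0.096 and became 0.019 with library totals. The plot of gene lists sets the genes of these lists beside the 10 RNAs.

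**Figure D5:**
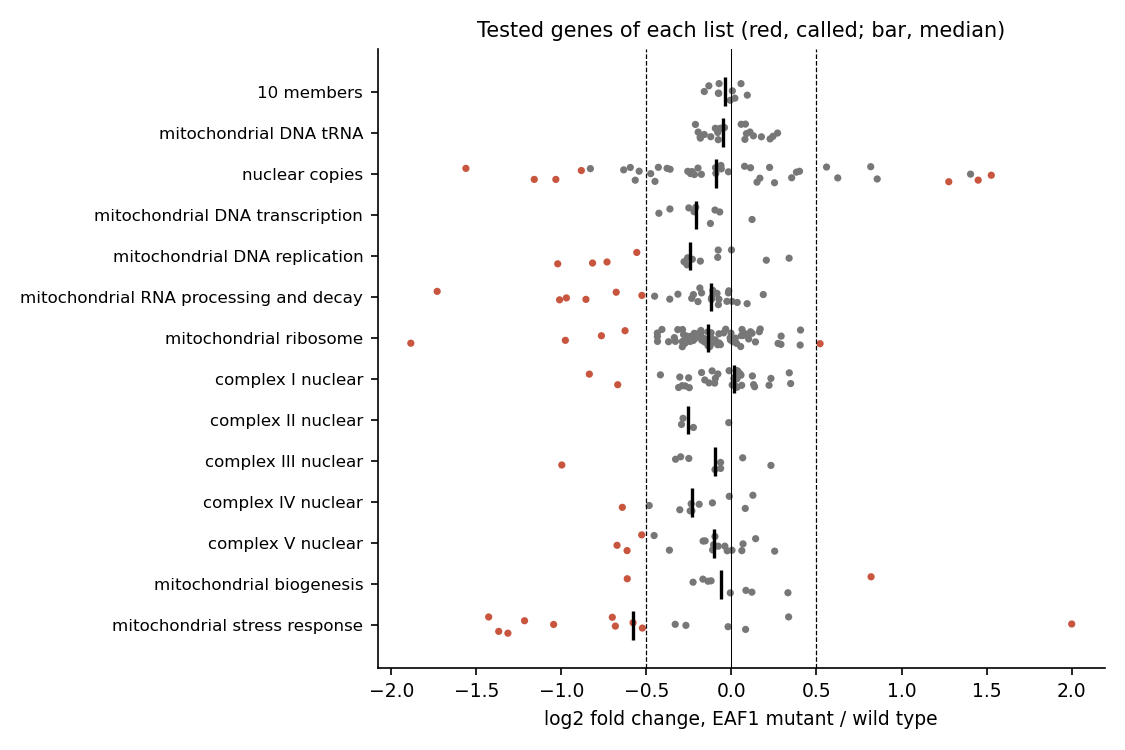
Log2 fold change of EAF1 mutant over wild type (horizontal axis) of each tested gene of each list (vertical axis), with genes past the threshold in red, a bar at each median and dashed lines at 0.5 in size. With TMM scaling the 10 RNAs lie between -0.16 and 0.093, while the stress response list has a median of -0.579 with 9 of 15 genes called lower.

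Among 10 regulators of mitochondrial biogenesis, 1 was called lower and 1 higher, with a median of -0.063 that became 0.052 with library totals. PPARGC1B, a coactivator of respiratory genes, fell by 0.61, though it was not called with library totals (-0.498), and MYC rose by 0.82 on the log2 scale. In the list of mitochondrial and integrated stress response genes, of 16 genes, 15 were tested, 9 were called lower and 1 higher, with a median of -0.579, or -0.464 with library totals, where 7 were called lower. PHGDH, the first enzyme of serine synthesis, fell by 1.43 and DDIT4, an inhibitor of mTORC1 signalling, fell by 1.37. Others of the 9, named after their values were seen, were ASNS and PSAT1, enzymes of amino acid synthesis, at -1.22 and -1.31, and ATF4, the transcription factor of this response, at -0.683. The mitochondrial chaperones HSPD1, HSPE1 and HSPA9, named in the same way, fell by 0.58, 0.70 and 0.52, of which HSPD1 and HSPA9 were not called with library totals (-0.464 and -0.409). The 1 called higher was GDF15, also named afterwards, at means of 0.0807 CPM in wild-type and 0.328 CPM in mutant cells.

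Abundant nuclear noncoding RNAs, which libraries of total RNA also hold, were listed as a reference. Of 7, 1 was called lower and 3 higher, with a median of 0.028 that became 0.144 with library totals. RPPH1, the RNA of nuclear RNase P, fell by 0.64, while NEAT1 and MALAT1, which stay in the nucleus, rose by 1.26 and 0.58 on the log2 scale. The other called higher was RN7SK at 0.548, named after its values were seen. MALAT1 had 826.2, 1145 and 1097 CPM in wild-type and 1436, 1581 and 1573 CPM in mutant libraries, so that wild-type replicate 1 was low here as well, and without it MALAT1 was not called (0.436).

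The genes whose profile was most like that of the 10 RNAs were sought among 1730 protein-coding nuclear genes whose mean reached 100 CPM. The profile was the mean over the 10 of the log2 CPM centred on each gene's own mean: -0.127, 0.097 and 0.083 in wild-type and -0.102, 0.064 and -0.014 in mutant replicates 1, 2 and 3. The root mean square difference from it over the 6 libraries was smallest for EPB41L2, a protein of the membrane skeleton (0.0298), TRRAP, a cofactor of histone acetyltransferases (0.0323), and PSMB2, a proteasome subunit (0.0413). The 10 RNAs themselves ranged from 0.0262 for MT-CYB to 0.240 for MT-RNR2.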

How the data were processed

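Total RNA depleted of rRNA was sequenced (a stranded kit, paired-end reads) from 3 wild-type and 3 EAF1-mutant HEK293T samples, grouped by their labels. The authors trimmed the reads (Trim Galore in the methods, Trimmomatic 0.38 in the processing notes), aligned them by HISAT2 to GRCh38, used Rsubread with Ensembl annotation for counting, and deposited raw read counts per gene. How counting treated strand and multi-mapped reads is not given in the sources used here. GENCODE v44 was matched by 57754 of 58395 genes and gave symbols, positions and exon lengths; the other 641 held 2.81% of the counts and stayed in the totals. ChIP-seq, PRO-seq and the other assays were not used here.

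The deposited counts were filtered with filterByExpr and scaled by TMM factors (0.957 to 0.963 in wild-type and 1.038 to 1.043 in mutant libraries) in edgeR 4.0.16 under R 4.3.3. CPM, log2 CPM (prior count 2) and the quasi-likelihood test came from the same package, standard errors were derived from the test's F statistic, and p-values were adjusted by Benjamini-Hochberg over 28025 genes. The biological coefficient of variation was 4.11%. Calls needed a log2 fold change larger than 0.5 in either direction and an adjusted p below 0.01. DESeq2 1.42.0 was run as an alternative. Shares, intervals (Wilson, 95%) and sequences, read from GRCh38, came from Python 3.11.15 with numpy 2.4.6, pandas 2.3.3 and scipy 1.17.1. RefSeq gave the position of RNA18SN1. The edgeR step was tested on simulated counts. Library totals of 52541541 to 66611451 counts set the depth, and each of the 10 RNAs had at least 120.3 CPM in each library.

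The alternatives were library totals without TMM, scaling without mitochondrial genes or to mitochondrial mRNA, DESeq2, other filters and thresholds, leaving out each library, a replicate block, other denominators and sets for the share, counts not divided by length, and lists without the short arm of chromosome 3. The share with chromosome 1 copies and the alternatives for MT-RNR1, for the count with no minimum fold change and for calls of single listed genes were added after seeing the data. The 10 RNAs and the lists were chosen with earlier results of these data known.

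Genes named were the 10 RNAs, the other mitochondrial mRNA and rRNA genes, the 3 tRNA genes and 3 nuclear copies with the highest mean CPM, 6 genes of mitochondrial transcription and RNA stability, in each nuclear list up to 2 genes called lower and 2 called higher by size of change with a mean of at least 1 CPM, and the 3 genes most like the 10. Lists covered mitochondrial tRNA, nuclear copies, transcription, replication, RNA processing, the mitochondrial ribosome, complexes I to V, biogenesis, stress response, noncoding reference RNAs and cell type markers.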

Additional observations from a re-analysis of the deposited data

How the results depend on the processing

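Of 130 log2 fold changes of the 10 RNAs under the alternatives, 0 passed the thresholds, the largest was 0.307 in size, and 17 had the opposite sign, all of small size. With an adjusted p under 0.05 and no minimum fold change 1 RNA, MT-CO3, was lower. The share of all genes tested was not counted there, but it is at least the 21.1% lower at an adjusted p under 0.01. At an adjusted p under 0.01 with no minimum fold change, a count whose alternatives were added after seeing the data, 1 RNA was lower with TMM factors, beside 21.1% of all genes tested. It became 0 lower (14.8% of all genes tested) and 3 higher (29.7%) with library totals, 0 lower with a filter of at least 1 CPM (27.1%) or when scaled to mitochondrial mRNA (17.5%), and 2 lower with no filter (12.6%) or with the replicate block (20.9%). With 1 library left out it was 0 to 4 lower (18.1 to 20.6%), 4 being without wild-type replicate 1 (20.6%); the cause was not tested. The median over the 10 was 0.075 with library totals in place of TMM factors and between -0.12 and 0.008 with 1 library left out. With library totals the sign turned for MT-ND1 (0.042), MT-ATP6 (0.038), MT-ND4 (0.04) and MT-CYB (0.108), as the scaling moved the median of all genes up. MT-ND5 stood at -0.006 in DESeq2, and MT-CYB at 0.009 with a filter of at least 1 CPM and 0.005 when scaled to mitochondrial mRNA; the cause was not tested. Leaving out single libraries, the value ranged from -0.307 to 0.049 for MT-RNR2, -0.078 to 0.065 for MT-ND2, -0.022 to 0.028 for MT-ND5 and -0.085 to 0.026 for MT-CYB. In the balance, mutant minus wild-type share in percentage points then ranged from -1.60 to 0.319 for MT-RNR2, -0.141 to 0.0121 for MT-ND1 and -0.0108 to 0.0979 for MT-ND5.

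The share of all counts was 0.834% in wild-type and 0.901% in mutant libraries without MT-RNR2, 1.155% and 1.211% with all mitochondrial genes, and 1.031% and 1.097% with 6 nuclear copies on chromosome 1, a set added after seeing the data; each differs by its construction. DESeq2 called 1 nuclear copy lower. With library totals 3 genes of the mitochondrial ribosome were called higher, 1 gene of ATP synthase lower and 0 genes of biogenesis lower (0 in edgeR, where 5 were lower at an unadjusted p under 0.05 with TMM factors; DESeq2 called 1). Without genes of the short arm of chromosome 3, edgeR called 0 genes of complex III lower, as UQCRC1 lies there (5 of the full list were lower at an unadjusted p under 0.05; DESeq2 called 1).

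Libraries with the same replicate number did not deviate together (correlations of -0.00537, -0.0166 and 0.00974 over 28025 genes), and not every library correlated best with its own number. With the replicate number as a replicate block, edgeR called 5685 genes in place of 5697, 0 of the 10 RNAs were called lower or higher, and their median was -0.034. MT-RNR2 had -0.184 (adjusted p = 0.00166 in edgeR, range over its alternatives 2.53e-05 to 0.785). MT-RNR1, whose alternatives were added after seeing the data, passed the thresholds with the block (-0.512, adjusted p = 7.91e-10 in edgeR, range 4.05e-34 to 0.328). It and MT-RNR2 were lowest in replicate 1 of both groups. For each of these genes the lowest adjusted p came from the edgeR fit with no filter except 1 count.

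The 3 libraries a group, the 1 mutant clone, reads shared with nuclear copies and with overlapping or opposite genes, and rRNA depletion limit these comparisons. Intervals of the shares cover counting error only.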
